A study of Mus musculus with 12 samples.

Results

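The 10 genes Tle1, Thap2, Gldc, Hspa4l, Tnfaip1, Fam91a1, Map7, Trpm3, Tmem255a and Prss23 were higher than in control cells under each of 2 separate siRNA sets against Dmrt3 and Dmrta2 in the embryonic mouse medial telencephalon, and they were picked for that reason, out of 15369 named genes kept on the array. They were selected on their log2 differences from control siRNAs in the set 1 and set 2 arrays, so those differences are given here as a description, with no p-value for a gene, and counts of calls among them restate the choice. The difference between the siRNA sets and the level under Dmrta2 overexpression were not the criterion and were tested. Both use arrays that also entered the choice, the siRNA arrays in one case and the control arrays in the other, so these tests are not fully independent of it. The 10 genes were represented by 16 probes on the array, and every probe is accounted for.

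Dmrt3 and Dmrta2 encode transcription factors with a DM domain, a zinc-finger DNA-binding module named after the sex-determination genes doublesex and mab-3. Both are made by progenitors of the dorsal and medial telencephalon, which form the neocortex, the hippocampus and the cortical hem, and losing them shifts the regional identity of these progenitors. The genes described here do not belong to 1 pathway: they encode a co-repressor, a probable DNA-binding protein, a mitochondrial enzyme, a chaperone, a ubiquitin-ligase adaptor, a vesicle-tethering partner, a microtubule protein, an ion channel, a membrane protein and a secreted protease.

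Embryos of the CD-1 strain were electroporated at E11.5 in the medial telencephalon with a nuclear EGFP vector, and GFP-positive cells were sorted 24 h later, at E12.5. The cells had also received siRNA set 1 against Dmrt3 and Dmrta2, siRNA set 2 against the same pair, an expression vector for Dmrta2, or control siRNAs, with 3 replicates in each of the 4 groups. No array held an empty expression vector, so the control siRNAs were the comparison for the vector too, and the labels do not say how many embryos went into a sample. If replicates were not separate pools of embryos, the p-values measure a spread that may be partly technical. Total RNA was labelled with Cy3 and hybridised to 1-colour Agilent arrays on 3 slides of 4 arrays. Each slide carried 1 replicate of every group, with each group always at the same place, so place on the slide and group cannot be told apart. In sorted bulk cells, fewer cells of a type and less RNA per cell cannot be told apart.

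Between 67.1% and 72.2% of the spots of an array exceeded background clearly by the scanner software's rule (called well above background below), and the 75th percentile of the processed signal ranged from 571.5 to 1143. Progenitor markers such as Sox2, Emx2 and Lhx2, as a summed log2 level over 10 genes, lay between 7.60 and 7.91 on all arrays. The sum does not show single genes. Their log2 differences from control siRNAs ran from -0.38 to 0.90 under set 1, -0.35 to 0.74 under set 2 and -0.18 to 0.15 under overexpression. By limma, 2 were higher and 1 lower at an unadjusted p below 0.05 in each siRNA set, and 0 under overexpression. None passed the threshold. The targeted transcripts differed from control siRNAs by -1.01 ± 0.30 (Dmrt3, set 1), -0.79 ± 0.30 (Dmrt3, set 2), -0.61 ± 0.16 (Dmrta2, set 1) and -0.31 ± 0.16 (Dmrta2, set 2) on the log2 scale (SE, n = 3 arrays a group), and neither gene passed the threshold in these comparisons (adjusted p = 0.235, 0.281, 0.19 and 0.495). In the overexpression arrays the Dmrta2 probe differed from control siRNAs by -0.49 ± 0.16 (adjusted p = 0.595). Whether this probe lies within the sequence carried by the vector is not given in the sources used here, so it does not check that label.

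All levels below are log2 of the processed signal minus the array's 75th percentile, so 0 is the 75th percentile of that array and each unit is 1 doubling. A level can be compared between arrays for 1 probe, not between probes. Of the 10 genes, 7 were well above background on all 12 arrays. The other 3, Map7, Thap2 and Trpm3, were well above background on no control array, and they passed the filter on dim probes (well above background on at least 3 arrays) through the siRNA arrays. For these, a rise over control is given as at least a certain fold: the brighter group's mean is set against the control mean after each control reading was raised, where it lay below, to the dimmest signal that was well above background on that array. These folds come from means of 3 arrays a group and carry no SE, so they are point estimates and not guaranteed minima.

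**Figure D1:**
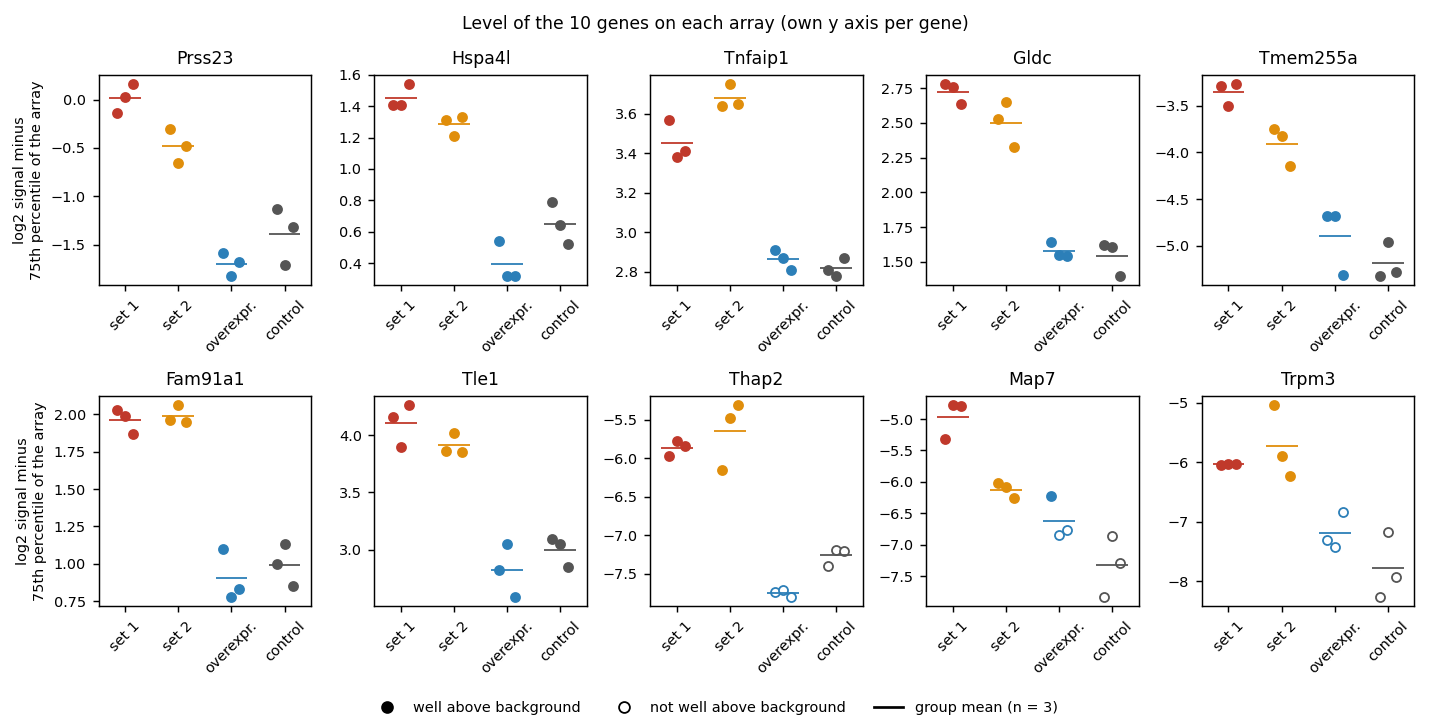
Level of each of the 10 genes on each of the 12 arrays, as log2 processed signal minus the array's 75th percentile, with 1 panel and 1 y axis per gene; points are arrays, horizontal lines are means of 3 arrays, and open points are arrays on which the probe was not well above background. In every panel the 6 siRNA arrays lie above the 3 control arrays, and the overexpression arrays lie below all siRNA arrays for every gene but Map7.

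Tle1, a co-repressor of the Groucho family that joins repressors such as the Hes proteins at DNA, stood at 4.16, 3.90 and 4.26 on the set 1 arrays, at 3.86, 4.02 and 3.85 on the set 2 arrays, at 2.82, 3.05 and 2.59 under Dmrta2 overexpression, and at 3.09, 3.05 and 2.85 with control siRNAs (replicates 1, 2 and 3 in each). Every siRNA array was higher than every control and overexpression array. The rise was 1.11 ± 0.15 under set 1, or 2.16-fold, and 0.92 ± 0.15 under set 2, or 1.89-fold (log2 difference, SE, n = 3 a group). The other 2 Tle1 probes were also higher: A_66_P137556 by 1.07 and 0.91, and A_55_P1968362 by 0.53 under each set. On A_55_P1968362 the siRNA and control arrays overlapped, since replicate 1 of both siRNA sets, at -0.75 and -0.80, lay below the highest control array at -0.70. The promoter of Tle1 is shown as an example of the GC boxes found for most of the 10 genes (GGGCGG or its reverse complement, in capitals; RefSeq, GRCm38.p6, chr4:72200844-72201143, minus strand, 250 bases before to 50 bases after the start site, 5′ to 3′):
Tle1: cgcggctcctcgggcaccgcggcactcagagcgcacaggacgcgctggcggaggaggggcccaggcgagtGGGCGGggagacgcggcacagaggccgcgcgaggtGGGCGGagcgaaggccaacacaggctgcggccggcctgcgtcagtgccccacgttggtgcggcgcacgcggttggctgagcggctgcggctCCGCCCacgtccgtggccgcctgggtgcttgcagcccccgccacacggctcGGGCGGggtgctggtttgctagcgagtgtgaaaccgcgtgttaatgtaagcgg

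Thap2 encodes a protein with a THAP domain, a zinc finger that binds DNA in other members of its family. It read -5.97, -5.78 and -5.84 on the set 1 arrays, -6.15, -5.48 and -5.31 on the set 2 arrays, -7.74, -7.71 and -7.80 under overexpression, and -7.40, -7.19 and -7.20 with control siRNAs. The probe was well above background on all 6 siRNA arrays and on none of the other 6, and there was no overlap between them. Thap2 was therefore at least 1.36-fold higher under set 1 and at least 1.58-fold higher under set 2 than with control siRNAs. With normexp background correction, which added an offset of 50 to each signal, its differences were 0.03 and 0.14 on the log2 scale. The processed signals of Thap2, 2.56 to 21.6, lay below that offset. Such an offset draws log2 differences of dim probes toward 0, so these values do not measure the size of the rise.

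Gldc encodes the glycine decarboxylase of the mitochondrial glycine cleavage system, which breaks down glycine and feeds its carbon to folate. Its levels were 2.78, 2.76 and 2.64 under set 1, 2.53, 2.65 and 2.33 under set 2, 1.64, 1.55 and 1.54 under overexpression, and 1.62, 1.61 and 1.40 with control siRNAs. The siRNA arrays formed a group of their own, and the overexpression arrays lay within or just above the control range. Gldc was higher by 1.18 ± 0.12 under set 1, or 2.27-fold, and by 0.96 ± 0.12 under set 2, or 1.95-fold. On single slides the difference from control was between 1.15 and 1.24 for set 1 and between 0.91 and 1.04 for set 2. The promoter is shown with its CCAAT box, which lies on the reverse strand and begins 66 bases before the start site (ATTGG, in capitals; RefSeq, GRCm38.p6, chr19:30175392-30175691, minus strand):
Gldc: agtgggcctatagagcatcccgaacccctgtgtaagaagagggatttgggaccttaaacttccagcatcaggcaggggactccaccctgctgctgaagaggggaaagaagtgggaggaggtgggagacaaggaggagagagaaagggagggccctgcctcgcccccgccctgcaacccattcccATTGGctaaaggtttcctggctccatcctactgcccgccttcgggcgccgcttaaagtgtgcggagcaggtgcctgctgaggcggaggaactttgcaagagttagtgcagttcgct

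Hspa4l, a chaperone of the HSP110 family that releases ADP from HSP70 proteins, was at 1.41, 1.41 and 1.54 under set 1, 1.31, 1.21 and 1.33 under set 2, 0.54, 0.32 and 0.32 under overexpression, and 0.79, 0.64 and 0.52 with control siRNAs. The siRNA arrays again stood clear of the rest. It was higher by 0.80 ± 0.11 under set 1, or 1.74-fold, and by 0.64 ± 0.11 under set 2, or 1.55-fold. The set 2 value was the smallest among the 7 genes well above background on all arrays. Tnfaip1 encodes a BTB-domain adaptor through which the CUL3 ubiquitin ligase marks RHOA for degradation. It measured 3.57, 3.38 and 3.41 under set 1, 3.64, 3.75 and 3.65 under set 2, 2.91, 2.87 and 2.81 under overexpression, and 2.81, 2.78 and 2.87 with control siRNAs. The overexpression and control arrays of Tnfaip1 were intermixed, and every siRNA array was higher. Tnfaip1 was up by 0.63 ± 0.10 under set 1, or 1.55-fold, and by 0.86 ± 0.10 under set 2, or 1.81-fold. Its set 1 rise was the smallest among the same 7 genes. Map7, Thap2 and Trpm3 have only bounds and are not ranked.

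Fam91a1 encodes a part of the WDR11 complex, which acts in the capture of endosome-derived vesicles at the trans-Golgi. It had levels of 2.03, 1.99 and 1.87 under set 1, 1.96, 2.06 and 1.95 under set 2, 1.10, 0.78 and 0.83 under overexpression, and 1.00, 1.13 and 0.85 with control siRNAs. The siRNA sets were intermixed with each other, as were overexpression and control. Fam91a1 was 1.96-fold higher under set 1 (log2 difference 0.97 ± 0.12) and 1.99-fold higher under set 2 (log2 difference 1.00 ± 0.12). Map7 encodes a microtubule-binding protein that recruits the motor kinesin-1. On its probe with the higher mean over the 12 arrays, Map7 read -5.31, -4.78 and -4.80 under set 1, -6.02, -6.09 and -6.26 under set 2, -6.23, -6.85 and -6.77 under overexpression, and -7.83, -6.86 and -7.30 with control siRNAs. It was well above background on every siRNA array, on overexpression replicate 1 and on no control array. Set 1 lay above set 2 without overlap, and 1 overexpression array reached into the range of set 2. Map7 was at least 2.54-fold higher under set 1 and at least 1.14-fold higher under set 2 than with control siRNAs. The second Map7 probe, A_52_P109548, also well above background on every siRNA array and on no control array, was at least 3.13-fold and at least 1.31-fold higher. With normexp background correction, whose offset of 50 draws dim differences toward 0, Map7 differed by 0.20 under set 1 and 0.03 under set 2 (log2).

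Trpm3 encodes a cation channel of the plasma membrane, known for its high level in the choroid plexus. Its brightest probe read -6.05, -6.02 and -6.02 under set 1, -5.04, -5.90 and -6.23 under set 2, -7.30, -7.43 and -6.83 under overexpression, and -8.26, -7.17 and -7.92 with control siRNAs. Set 1 was tightly grouped, set 2 spread over more than 1 unit because replicate 1 was high, and no overexpression or control array was well above background. Trpm3 was at least 1.21-fold higher under set 1 and at least 1.50-fold higher under set 2. With normexp background correction, again drawn toward 0 by its offset, the log2 differences were 0.06 and 0.21. A second probe, A_55_P2075692, was well above background on 2 of 3 arrays of each siRNA set and on no control array, and was at least 1.14-fold and at least 1.10-fold higher. The third, A_55_P2075686, was not well above background on any array. Of the RefSeq promoters of Trpm3, the more upstream one is shown with a CCAAT box that starts 67 bases before the start site (in capitals; GRCm38.p6, chr19:22138796-22139095, plus strand):
Trpm3: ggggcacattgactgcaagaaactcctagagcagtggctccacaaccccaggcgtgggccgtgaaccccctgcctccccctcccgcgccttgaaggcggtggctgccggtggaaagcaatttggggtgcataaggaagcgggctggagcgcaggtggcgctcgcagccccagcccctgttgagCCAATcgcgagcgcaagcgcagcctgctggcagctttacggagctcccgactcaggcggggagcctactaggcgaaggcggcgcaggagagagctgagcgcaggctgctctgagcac

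Because Trpm3 marks the choroid plexus, markers of that tissue are given beside it. Of 8 markers 6 were kept and Kl and Kcne2 were not, and by limma none passed the threshold against control siRNAs, with 3 of 6 at an unadjusted p below 0.05 under set 1, 0 under set 2 and 2 under overexpression. Their summed log2 level was 1.33 to 2.12 under set 1, 0.76 to 1.30 under set 2, 1.07 to 1.37 under overexpression and 0.19 to 0.90 with control siRNAs. Ttr, the transthyretin gene that defines this epithelium, reached 0.67 on set 1 replicate 1 and lay between -4.15 and -1.44 on the other arrays but control replicate 1, where it was not well above background. Under overexpression Ttr, at -4.15, -2.73 and -3.41, overlapped control replicates 2 and 3, at -3.85 and -3.30. Otx2, a brighter gene of the sum, was at 0.95, 1.19 and 0.62 under set 1 and 0.22, 0.06 and -0.06 under set 2. It was at 0.49, 0.15 and -0.21 under overexpression and -0.74, 0.03 and -0.15 with control siRNAs. The summed markers were higher than on every control array on all set 1 and all overexpression arrays and overlapped control under set 2, and the part of choroid plexus cells in the Trpm3 values was not tested.

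Tmem255a, a gene for a multi-pass membrane protein of little-known function, had levels of -3.29, -3.50 and -3.27 under set 1, -3.75, -3.82 and -4.15 under set 2, -4.68, -4.68 and -5.31 under overexpression, and -5.32, -4.96 and -5.28 with control siRNAs. Each siRNA set was clear of the control arrays and of the other set. The rise was 1.84 ± 0.19 under set 1, or 3.57-fold, and 1.28 ± 0.19 under set 2, or 2.43-fold. The dimmer probe of Tmem255a, A_52_P518270, differed by only 0.60 and 0.17, with set 1 replicate 2 alone at -4.51 and all other arrays between -6.28 and -5.57. With the probes averaged, Tmem255a was higher by 1.22 under set 1 and 0.73 under set 2, and with normexp background correction by 0.61 and 0.39. The normexp offset of 50 is large beside its processed signals, 14.4 to 101 on the brighter probe, and draws these differences toward 0. Its promoter carries a CCAAT box that starts 53 bases before the start site (in capitals; RefSeq, GRCm38.p6, chrX:38252432-38252731, minus strand):
Tmem255a: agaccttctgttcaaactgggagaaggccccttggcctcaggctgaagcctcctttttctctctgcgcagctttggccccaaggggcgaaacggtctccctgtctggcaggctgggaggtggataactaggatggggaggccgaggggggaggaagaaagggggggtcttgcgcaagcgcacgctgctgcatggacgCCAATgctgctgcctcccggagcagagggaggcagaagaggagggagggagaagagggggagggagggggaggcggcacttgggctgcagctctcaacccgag

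Prss23, a secreted serine protease, read -0.14, 0.03 and 0.16 under set 1, -0.30, -0.66 and -0.48 under set 2, -1.59, -1.82 and -1.68 under overexpression, and -1.13, -1.71 and -1.32 with control siRNAs. All siRNA arrays were higher than all others, with set 1 above set 2. Prss23 was 2.64-fold higher under set 1 (log2 difference 1.40 ± 0.16) and 1.88-fold higher under set 2 (log2 difference 0.91 ± 0.16). Its rise differed among slides, between 0.99 and 1.74 for set 1 and between 0.83 and 1.05 for set 2.

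**Figure D2:**
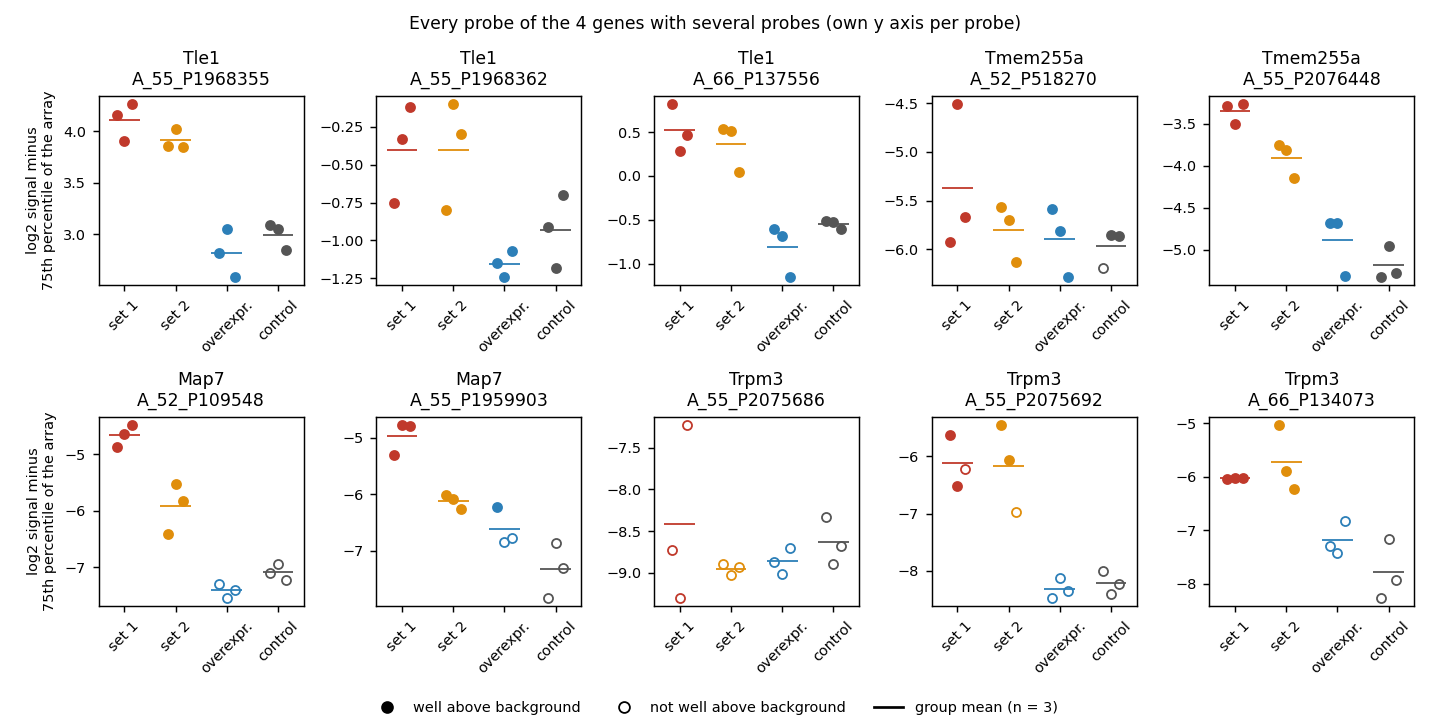
Level of each of the 10 probes of Tle1, Tmem255a, Map7 and Trpm3, the genes with several probes, on each array, as log2 processed signal minus the array's 75th percentile, with 1 y axis per probe; lines are means of 3 arrays and open points were not well above background. The probes of Map7 show the same order of the siRNA sets, while the dimmer Tmem255a probe shows 1 high set 1 array at -4.51.

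Taken over the whole array, 23 genes (0.15%) were higher under set 1 than with control siRNAs at an adjusted p below 0.05, 102 (0.664%) under set 2 and 91 (0.592%) under the average of both sets. The 10 genes accounted for 9, 9 and 10 of these, which follows from how they were chosen. With the slide as a block, 115 genes were called in either direction under set 1, against 33 without the block, and 362 under set 2, against 145, and 9 of the 10 genes in each set. With only the groups compared in the fit, no gene passed the threshold in either set, so these calls rest on the spread shared over all 12 arrays. All 6 siRNA arrays were above all 3 control arrays for each of the 10 genes and for 3.29% of all genes. The median log2 difference over the 10 genes was 1.29 under set 1 and 0.98 under set 2, against -0.01 and 0.01 over all genes, and it was 1.04 and 0.88 with dim signals raised to the dimmest signal well above background.

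In the present fit, 14 genes (0.0911%) passed the threshold upward in both siRNA sets, and 8 of the 10 described here were among them. The remaining pair lay just outside: Map7 had a log2 difference of 1.21 under set 2, and Trpm3 of 1.75 under set 1, each with the other set inside. The last genes inside were Prss23 and Emilin2. Emilin2, not among the 10, had log2 differences of 2.30 under set 1 and 1.18 under set 2. The first genes outside were Ado, C9orf72 and Sparc, at 0.62 and 0.61, 0.91 and 0.89, and 0.99 and 0.90 under set 1 and set 2. Other genes inside but not described here were Tox, Tomm20, Eda2r, Chchd4 and Tacr3; Tomm20 and Chchd4 act in mitochondrial protein import, and differed by 0.80 and 1.09, and by 1.43 and 1.44, under set 1 and set 2. The choice of 10 was therefore not a list of all genes that rose in both sets.

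The comparison of set 2 with set 1 asks whether siRNAs of different sequence against the same transcripts gave the same size of rise. None of the 10 genes differed between the sets at an adjusted p below 0.05 by limma, a result which 12 genes (0.0781%) reached. At an unadjusted p below 0.05 it was 4 of the 10 genes, and 1499 of all genes. These differences use the same siRNA arrays as the choice of the genes. Requiring a rise in both sets limits how far the sets can differ, so few calls do not show an equal rise. Map7 differed most: the difference was -1.16 on the log2 scale (95% interval -1.72 to -0.59, adjusted p = 0.133), and between -1.46 and -0.71 on the 3 slides. On its second probe the slides gave -1.54 to -0.89. Tmem255a had a difference of -0.55 (interval -0.98 to -0.13, adjusted p = 0.351) and Prss23 one of -0.49 (interval -0.86 to -0.13, adjusted p = 0.326), both below 0 on all 3 slides. Tnfaip1 had the opposite sign, 0.23 (interval 0.01 to 0.44, adjusted p = 0.481), again on all 3 slides.

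For the other 6 genes the intervals of the difference between sets included 0. Fam91a1 had the narrowest gap, 0.03 (interval -0.24 to 0.29), Gldc -0.22 (-0.48 to 0.03), Tle1 -0.20 (-0.52 to 0.13) and Hspa4l -0.17 (-0.41 to 0.08), so differences beyond about these bounds lie outside the intervals, but the sets were not shown to act alike. Thap2 and Trpm3 were less precise, at 0.21 (interval -0.20 to 0.63) and 0.31 (interval -0.42 to 1.04), and without replicate 1 of set 2 the Trpm3 difference was -0.03. The set 2 arrays did not overlap the set 1 arrays for 5 of the 10 genes: Prss23, Hspa4l, Tmem255a and Map7 lay lower in set 2 and Tnfaip1 lay higher. Of all genes, 13.9% did not overlap, 6.27% lower in set 2 and 7.67% higher. Over the 10 genes the median difference was -0.18, with 4 above 0, against 0.02 over all genes.

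**Figure D3:**
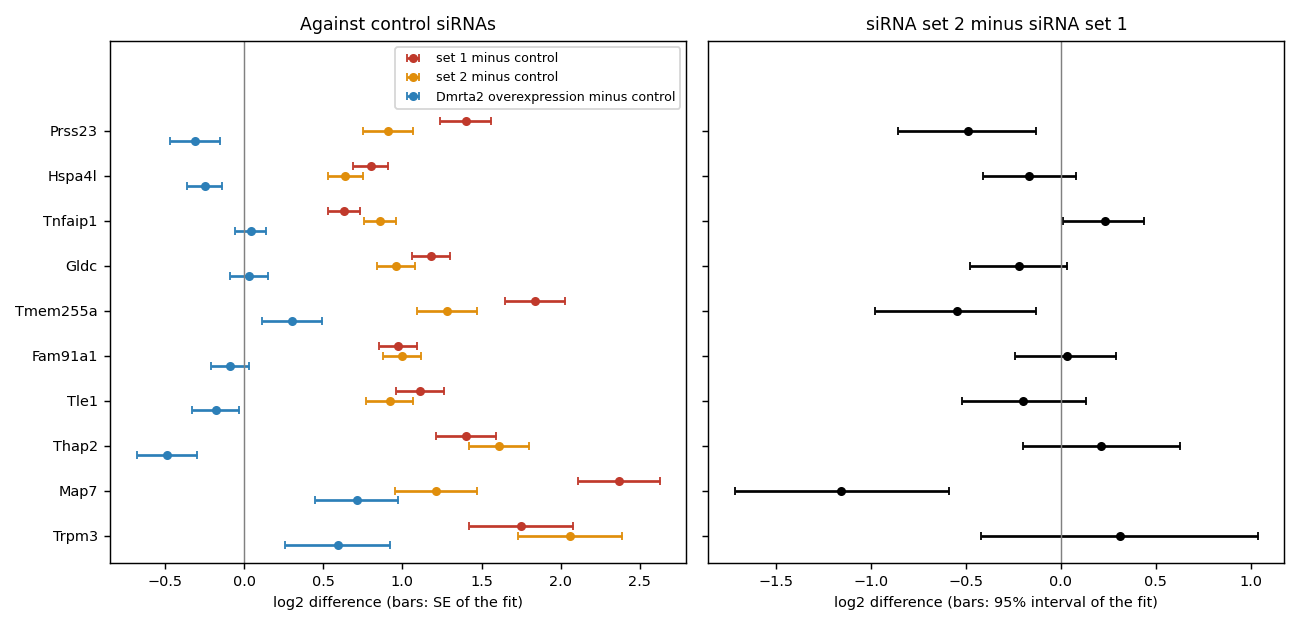
Log2 differences of the 10 genes, from the fit over 12 arrays: at left each siRNA set and Dmrta2 overexpression minus control siRNAs, with SE as bars, and at right set 2 minus set 1, with 95% intervals as bars. The siRNA points lie to the right of 0 for all 10 genes, which chose the genes, and the Map7 interval at right runs from -1.72 to -0.59; values of Map7, Thap2 and Trpm3 against control siRNAs are measured on dim control signals, and bounds are in the text.

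Dmrta2 overexpression asks whether the genes that rose with the siRNAs moved when the factor was supplied. None of the 10 genes differed from control siRNAs at an adjusted p below 0.05 by limma, while 43 genes (0.28%) did, all of them higher under overexpression. At an unadjusted p below 0.05 the counts were 3 of the 10 genes and 688 of all genes. These differences use the same control arrays as the choice of the genes. The closest values to control were those of Gldc, 0.03 (95% interval -0.22 to 0.29), and Tnfaip1, 0.04 (interval -0.17 to 0.26). Hspa4l had a difference of -0.25 (interval -0.50 to -0.01, adjusted p = 1), between -0.32 and -0.20 on the 3 slides. Prss23 had a difference of -0.31 (interval -0.67 to 0.06), Tle1 of -0.18 (interval -0.50 to 0.15) and Fam91a1 of -0.09 (interval -0.36 to 0.17), each below 0, and Tmem255a one of 0.30 (interval -0.13 to 0.72).

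The remaining 3 genes were dim here. Thap2 read lower on every overexpression array than on every control array and Map7 higher on the probe used, and the other 8 genes overlapped. Of all genes, 7.63% did not overlap, 1.71% lower and 5.92% higher. The measured differences were -0.49 for Thap2 (adjusted p = 0.848) and 0.71 for Map7 (adjusted p = 0.727). Neither has a fold, since Thap2 was not well above background in either group and Map7 was well above background on 1 overexpression array only. With dim signals raised to the lowest signal well above background, the Map7 difference changed sign, at -0.12 against 0.71 as measured, and the second Map7 probe was at -0.32. That second probe had the higher mean under set 1, set 2 and control siRNAs. Only under overexpression was its mean lower, -7.41 against -6.62, so the overexpression arrays decided which Map7 probe was used. Trpm3 was not well above background in either group. The median over the 10 genes was -0.03 as measured, with 5 of them above 0, and -0.15 with dim signals raised, with 3 above 0, against 0.01 over all genes.

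Seen over the 12 arrays, the 10 profiles rose and fell together with the groups, as their choice requires. Each gene's levels were standardized, and the mean over the 10 genes was 1.00, 0.98 and 1.07 under set 1, 0.83, 0.81 and 0.66 under set 2, -0.73, -0.93 and -1.01 under overexpression and -0.93, -0.75 and -0.99 with control siRNAs. The correlation of a gene with the mean of the other 9 was highest for Gldc (Pearson r = 0.986 over 12 arrays) and lowest for Map7 (r = 0.813) and Trpm3 (r = 0.847). The genes outside the list with the most similar profile to the mean were Dennd6a (r = 0.965), C9orf72 (0.963), Derl2 (0.957), Chmp2b (0.954) and Ado (0.951), all 5 of which share arrays and groups with the list. Dennd6a differed from control siRNAs by 0.44 under set 1, 0.47 under set 2 and -0.01 under overexpression, and C9orf72 by 0.91, 0.89 and -0.03. Derl2, which encodes a protein of endoplasmic-reticulum quality control, and Chmp2b, which encodes an ESCRT-III subunit, differed by 0.46 and 0.78 under set 1.

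Relatives and partners of the 10 genes were read from 9 lists with 85 kept genes. By limma none passed the threshold in set 1, set 2 or the average of both sets against control siRNAs, and 12, 15 and 12 of the 85 had an unadjusted p below 0.05, beside 1532, 1971 and 1842 of all 15369 genes. In the Groucho list, 13 of 14 genes were kept, with 3 above 0 and a median of -0.11 for the average of both sets against control. The full-length relatives of Tle1, named after their values were seen, were Tle2 at -0.09 ± 0.36 (adjusted p = 0.964), Tle3 at -0.56 ± 0.11 (adjusted p = 0.066) and Tle4 at -0.56 ± 0.12 (adjusted p = 0.084). Tle6, a divergent member of the family, was the one gene of the lists past the threshold in overexpression. It stood at -1.93, -2.32 and -1.83 under overexpression and at -3.73, -3.77 and -3.70 with control siRNAs, a difference of 1.71 ± 0.15 (adjusted p = 0.000834), while Tle1 was at -0.18 in the same comparison.

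The chaperone list, 20 of 21 genes kept, had a median of -0.02 over both sets against control, next to 0.72 ± 0.10 for Hspa4l. Named after their values were seen, Hsph1, an HSP110 like Hspa4l, was at 0.50 ± 0.14 (0.53 under set 1 and 0.46 under set 2, adjusted p = 0.144 for the average), and Hspa1a, a heat-inducible HSP70, was at 1.20 ± 0.70 (0.21 under set 1 and 2.19 under set 2, adjusted p = 0.572). The most abundant members lay near 0 or below: Hspa8, the constitutive HSP70, at 0.06 ± 0.14, Hsp90ab1 at -0.01 ± 0.11 and Hspe1 at -0.32 ± 0.17. Glycine cleavage and one-carbon metabolism, 13 of 13 genes kept, had a median of -0.21 with 1 gene above 0, and Psat1 and Phgdh, which make serine, were at -0.16 ± 0.13 and -0.25 ± 0.24, beside 1.07 ± 0.10 for Gldc. Gcsh, the partner of GLDC in the glycine cleavage system, was the gene above 0, at 0.15 ± 0.13.

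Among the CUL3 adaptors and RHOA partners, 9 of 9 genes were kept with a median of 0.01, with Rhoa, the substrate's own transcript, at 0.08 ± 0.13, Rbx1, a subunit of cullin ligases, at -0.11 ± 0.08 and Pcna at -0.47 ± 0.17. The golgin list (7 of 7 kept) had a median of 0.08, with Golga4 and Golga1, both trans-Golgi golgins, at -0.18 ± 0.12 and 0.34 ± 0.10, and Arl1 at 0.05 ± 0.17. The MAP7 and kinesin-1 list (9 of 9) had a median of 0.13, and Map7d1, Kif5c and Klc2 were at 0.04 ± 0.09, 0.13 ± 0.16 and 0.21 ± 0.09. TRPM channels (6 of 7) and THAP proteins (7 of 9) had medians of -0.21 and 0.11, and Tmem255b, the paralogue of Tmem255a, was at -0.22 ± 0.20. The TRPM channels ran from -1.13 to 0.50. By limma, 1 of them was lower and 0 higher at an unadjusted p below 0.05. For all genes the median of this comparison was 0.00.

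**Figure D4:**
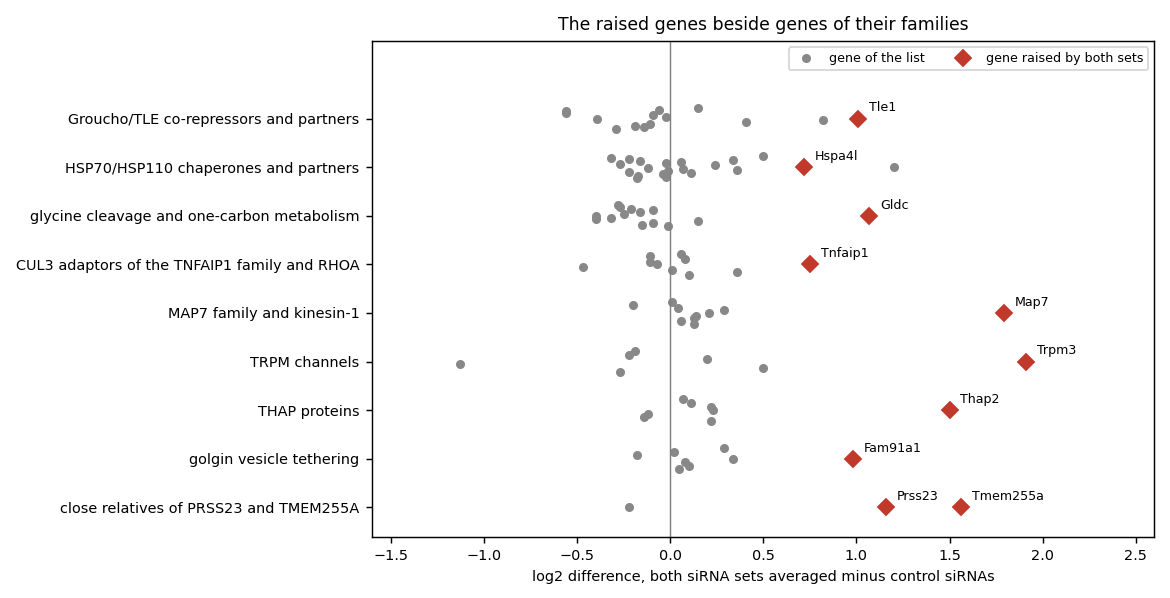
Log2 difference of both siRNA sets averaged minus control siRNAs for the kept genes of 9 lists of relatives and partners (grey points) and the 10 raised genes (red diamonds), 1 row per list. Grey points lie on both sides of 0, at list medians from -0.22 to 0.13, with single genes from -1.13 (a TRPM channel) to 1.20 (Hspa1a). None of them passed the threshold, while the diamonds lie to the right by choice.

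The 16 RefSeq promoters of 9 of the 10 genes, 300 bases each, were searched for short motifs on both strands, and Fam91a1 was not included. GC boxes (GGGCGG) were found in 10 of the 16 promoters, against 35.7% of 32851 mouse promoters. By gene it was 7 of the 9, where any matching promoter counts, so that count has no like share beside it. The match counts are not independent, since 7 of the promoters belong to Prss23 and overlap in part. CCAAT was found in 3 of the 16 promoters, 1 each of Gldc, Tmem255a and Trpm3, against 37.4% of all promoters, and its distance from the start site in these was 66, 53 and 67 bases. The palindrome core of the DM-domain motif, ACANTGT, was in none of the 16 promoters and in 7.54% of all, and the heat shock element pair GAANNTTC was in 2 of 16, 1 of Prss23 and 1 of Trpm3, against 7.86%. The base composition bears on such counts: 49.7% to 81.7% G and C in the 16 promoters of the 9 genes, against a median of 52.7% over all. A match is a description of the letters, and no match says only that these letters are absent from these windows.

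Some markers of other cell types and of a stress response differed between the groups. For neurons and endothelium, 0 of 7 and 0 of 5 kept genes had an unadjusted p below 0.05 by limma in any of the 5 comparisons. Markers of microglia and macrophages passed the threshold upward by limma for 0 of 10 kept genes under set 1 (7 at an unadjusted p below 0.05), 5 under set 2 and 3 under overexpression against control siRNAs, for instance Cx3cr1 by 1.65 ± 0.21 under set 2 and 1.61 ± 0.21 under overexpression. Their summed level overlapped among the groups, 1.14 to 2.52 under set 1, 1.76 to 2.64 under set 2, 1.74 to 2.65 under overexpression and 1.25 to 2.59 with control siRNAs. In every group the sum was lowest on slide 2. On slides 1, 2 and 3 it was 2.59, 1.25 and 2.41 with control siRNAs and 2.52, 1.14 and 2.42 under set 1. It was above control on every slide under set 2 (2.64, 1.76 and 2.52) and under overexpression (2.65, 1.74 and 2.42). Mesenchyme markers summed to 0.96 to 2.85 under set 1, above the 0.03 to 0.57 of control siRNAs, with 0 of 6 kept genes past the threshold and 3 at an unadjusted p below 0.05. Under set 2 and overexpression the mesenchyme sums, 0.53 to 0.76 and 0.20 to 0.83, overlapped control, with 1 and 2 genes at an unadjusted p below 0.05. Erythroid markers, 6 of 7 kept, summed to -0.06 to 3.88 under set 1, 1.22 to 2.35 under set 2, 1.86 to 2.96 under overexpression and -0.27 to 1.40 with control siRNAs, with 0 past the threshold and 1, 2 and 2 at an unadjusted p below 0.05. Targets of p53 were called for 3 of 11 genes under set 2, led by Ccng1 at 1.89 ± 0.21, and for 1 in the average of both sets. By limma, 1 gene was lower under set 2 at an unadjusted p below 0.05. Their sums were 5.14 to 5.32 under set 2, just above the 4.95 to 5.13 of control siRNAs. The sums under set 1, 4.66 to 5.15, and overexpression, 5.01 to 5.15, overlapped control. Under set 1 and under overexpression 0 were called, with 1 each at an unadjusted p below 0.05. The part of these cells and of this response in the values of the 10 genes was not tested.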

How the data were processed

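Per the file headers, the deposited spot intensities are processed signals of Agilent Feature Extraction 10.5.1.1, background-subtracted and detrended by the authors' scanner software but not scaled between arrays. The deposited table of log2 values, whose scale and centring no label states, matched those signals scaled to the 75th percentile and centred on each probe's median over the arrays (r above 0.999 on every array, column medians -0.13 to 0.10), and served as an alternative.

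Control spots and outlier-marked spots (136 to 218 of 43020 per array) were left out, spots of 1 probe were averaged, and the 75th percentile of each array was subtracted from its log2 signal. No spot was saturated. Probes were named through the RefSeq accession in the array annotation, which used mm9, with a RefSeq table of GRCm38.p6: of 39429 probes, 32334 had an accession and 26055 were named, for 19751 genes. Probes well above background on at least 3 of 12 arrays were kept, and a gene took its probe with the highest mean, leaving 15369 genes.

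Differences were fitted with limma 3.58.1 in R 4.3.3 (lmFit and eBayes) over all arrays without a block, two-sided, with Benjamini-Hochberg adjustment over all genes and a threshold of 0.05. SE and 95% intervals are moderated. Precision is limited by the number of arrays. The 10 genes, the gene lists and the named relatives were chosen with earlier results of these data known. Named were the 10 genes, Dmrt3 and Dmrta2, list genes past the threshold (1 gene of the lists is not reported here) or else up to 3 with the highest mean, the genes nearest the limit of the choice and the 5 most similar profiles. Tle2, Tle3, Tle4, Hsph1 and Hspa1a were named after their values were seen. The replicate number is the slide, per the file headers; deviations of same-numbered arrays correlated at 0.0196 to 0.599 and of others at -0.516 to 0.212, so the slide was also fitted as a block. On simulated data for set 2 minus set 1 over 15295 genes, 100 genes were changed by 1 log2 unit and 100 by 2. Of these 58% and 84% were recovered, with 9 false calls. In the data this comparison called 12 genes. The adjustment is easier to pass when many genes change, so recovery in the data may be lower. Normexp background correction, with intensities of the median spot and local background as deposited, was run with outlier-marked local backgrounds replaced by the array median, a change made after seeing the data because the fit failed on 3 arrays without it. An offset of 50 was added to the corrected signals, which draws log2 differences of dim probes toward 0.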

Additional observations from a re-analysis of the deposited data

How the results depend on the processing

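Over the 9 alternative settings and each array left out in turn, no setting brought any of the 10 genes past the threshold in set 2 against set 1 or in overexpression against control, and all differences from control siRNAs under set 1 and set 2 kept their sign. Counts moved by over 1.5 times as follows. With normexp, genes past the threshold numbered 56 in set 2 (4 of the 10), 38 in the average of both sets (6 of the 10) and 24 in overexpression. With no filter on dim probes they numbered 26 in set 2 (5 of the 10), 37 in the average and 0 in set 2 against set 1. With probes well above background on all arrays, overexpression had 26, and Map7, Thap2 and Trpm3 had no value. With the slide as replicate block, counts were 115 in set 1, 362 in set 2, 234 in the average and 37 in set 2 against set 1, and it changed no call of the 10 genes. With dim signals raised, set 1 had 50. In that setting 8 of the 10 genes passed in set 1, 7 in set 2 and 7 in the average, against 9, 9 and 10 in the main fit, changes of less than 1.5 times. With only the groups compared, set 1 and set 2 had 0 genes and 0 of the 10, the average 36, and set 2 against set 1 had 0. Leaving out arrays gave 4 to 84 genes in set 1 (2 to 9 of the 10, with 2 to 4 without any one set 1 array or control replicate 1 or 3), 10 to 145 in set 2 (2 to 9, with 2 to 5 without set 2 replicate 1 or 2, control replicate 1 or 3, or overexpression replicate 1), 17 to 88 in the average (8 to 10), 0 to 12 in set 2 against set 1 and 19 to 55 in overexpression. Signs turned in overexpression for Gldc (-0.01 with normexp, -0.04 without control replicate 3 to 0.07 without control replicate 1), Thap2 (0.05 with normexp), Map7 (-0.12) and Trpm3 (-0.22) with dim signals raised, and in set 2 against set 1 for Fam91a1 (-0.01 with quantile normalization, -0.00 without set 2 replicate 2, and -0.02 to 0.06 over all arrays left out) and Trpm3 (-0.03 without set 2 replicate 1 to 0.56 without set 2 replicate 3). Each value of turned sign was smaller than its SE, but as measured Map7 (0.71 ± 0.26) and Thap2 (-0.49 ± 0.19) were not, and the cause was not tested. The size of differences from control siRNAs moved by more than the spread of replicates for Tmem255a, Thap2, Map7 and Trpm3 with normexp (log2 0.03 to 0.61), for Thap2, Map7 and Trpm3 with dim signals raised (0.19 to 1.35), for Tmem255a (0.73 to 1.22) and Tle1 (0.84 to 0.90) with all kept probes averaged, and for Thap2 in set 2 without set 2 replicate 1 (1.86). Signal near background limits the values of Map7, Thap2 and Trpm3. The smaller normexp differences of these genes and of Tmem255a also reflect the offset of 50 added in that setting.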
